A study of Mus musculus with 12 samples.

Results

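The semaphorin, plexin, neuropilin, ephrin, Eph receptor, slit, robo, netrin, Dcc and Unc5 families were described across 6 groups of mouse pluripotent stem cells and embryonic tissue. A member was any gene with a probe set of 1 gene symbol that carries a family name, and the probe set with the highest mean signal stood for a gene with several. The members numbered 68 of 22180 genes. They were 20 semaphorins, 10 matches to the plexin name, 2 neuropilins, 5 A-type ephrins, 3 B-type ephrins, 9 EphA receptors, 4 EphB receptors, 3 slits, 4 robos, 3 netrins and 5 netrin receptors, which are Dcc and Unc5a to Unc5d. One plexin match, Plxna4os1, is an antisense RNA and not a receptor. Counted by role, the members were 34 ligands, 33 receptors and that RNA, and Ephb2 was not analysed here.

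RNA was measured on 12 microarrays, 2 for each group. The rsEpiSC lines, which other label fields call IS-EPI, were derived at embryonic day (E) 6.5 or at E5.75 and were kept with IWR1 at 2.5 µM, an inhibitor of Wnt signalling, and 20 ng/ml of a factor that the labels do not name. Epiblast stem cells (EpiSC) were derived at E5.75 and grown in 20% knockout serum replacement (KSR) with Activin A at 20 ng/ml and FGF2 at 12 ng/ml. Embryonic stem cells (ESC) were derived at E3.5 and kept with CHIR99021 at 3 µM, an inhibitor of the kinase GSK3, PD0325901 at 1 µM, an inhibitor of the kinase MEK, and LIF. Epiblast tissue of E6.5 and of E5.75, the pluripotent layer of the embryo after implantation, made up the remaining groups. All lines shared a layer of mouse embryonic fibroblasts (MEFs) and N2B27 medium, and the strain fields name a cross with the reporter OCT4-deltaPE-GFP. The strain and passage fields count up from array to array, so they were not used, and nothing in the labels says whether the 2 arrays of a group came from separate cultures or embryos. The p-values below therefore measure only the spread between these arrays, which may be technical.

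Axon guidance molecules steer growing axons and migrating cells by attraction or repulsion. Semaphorins bind plexins, and the secreted class 3 semaphorins mostly do so through neuropilins, while Sema3e binds Plxnd1 directly. Ephrins are membrane-bound ligands of the Eph receptor tyrosine kinases: A-type ephrins are held by a lipid anchor, B-type ephrins cross the membrane, and signals can run into both of the touching cells. Slits are secreted ligands of robos, and netrins act through Dcc, which can mediate attraction, and the Unc5 receptors, which mediate repulsion. Outside the nervous system the same families take part in cell sorting, tissue boundaries and blood vessel growth in the embryo. In bulk RNA, fewer cells of a type and less RNA per cell cannot be told apart.

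All values are log2 signals as the authors deposited them, and a difference is a log2 difference of group means with its standard error (SE) from limma. A gene was called when its p-value, after Benjamini-Hochberg adjustment across the 22180 genes, was under 0.05. Levels of different probe sets were not set against each other, since each probe set has its own response. The root mean square SD of the members between the 2 arrays of a group was 0.238 in rsEpiSC E6.5, 0.249 in rsEpiSC E5.75, 0.38 in EpiSC, 0.439 in ESC, 0.355 in epiblast E6.5 and 0.417 in epiblast E5.75. Cultured arrays had a wider spread of signals over all genes than tissue arrays, with interquartile ranges of 3.07 to 3.31 in the 8 cultured arrays and 2.23 to 2.68 in the 4 tissue arrays. Among genes of the naive state, Klf4 was at 9.39 and 9.56 in ESC and Zfp42 at 10.47 and 9.39 in ESC, and both lay at 5.40 or lower on the arrays of the other groups. Otx2, a factor of the epiblast after implantation, was at or above 8.93 on every rsEpiSC and tissue array, at 7.62 and 7.56 in EpiSC and at 6.004 and 4.84 in ESC. Of 9 such markers with Otx2, 0 rose and 4 fell in rsEpiSC E5.75 against epiblast E5.75, beside 21.5% of all genes called. These were Fgf5, Dnmt3b, Pou3f1 and Zic5. Fgf5 was at 3.78 and 4.17 in rsEpiSC E5.75 and at 8.45 and 9.00 in epiblast E5.75. In EpiSC 0 rose and 5 fell against epiblast E5.75, beside 24%. In rsEpiSC E6.5 1 rose and 1 fell against epiblast E6.5, beside 12.5%. The probe set of Pou5f1, the pluripotency factor that defines these cells, was at 5.23 and 4.84 in rsEpiSC E6.5, 4.87 and 3.86 in rsEpiSC E5.75, 5.71 and 5.96 in EpiSC, 6.95 and 7.11 in ESC, 5.83 and 5.75 in epiblast E6.5 and 5.54 and 5.91 in epiblast E5.75, so it was lowest in rsEpiSC.

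The families varied over the 6 groups, and rsEpiSC E5.75 was most often the group with the highest mean. In limma's F test over the 6 groups 34 of the 68 members (50%) were called, against 32% of all genes. By family these were 8 of 20 semaphorins, 8 of 10 plexin matches, 0 of 2 neuropilins, 4 of 5 A-type ephrins, 3 of 3 B-type ephrins, 4 of 9 EphA receptors, 2 of 4 EphB receptors, 1 of 3 slits, 1 of 4 robos, 2 of 3 netrins and 1 of 5 netrin receptors. A further 4 members, Efna1, Plxnb3, Sema3g and Sema6d, were called between a pair of groups but not in the F test, and 30 members were called in no test. The median range of the 6 group means was 1.32 over the members and 0.935 over all genes. The highest mean lay in rsEpiSC E5.75 for 23 of 68 members, against 12.1% of all genes, and the lowest there for 2 of 68, against 15.5%. In rsEpiSC E6.5 the mean was highest for 5 of 68 members, against 9.2% of all genes, and lowest for 1 of 68, against 13.1%. ESC had the lowest mean for 21 of 68 members, against 20.3% of all genes, and EpiSC for 18 of 68, against 19%. Epiblast E6.5 had it for 14 of 68, against 15.6%, and epiblast E5.75 for 12 of 68, against 16.5%.

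**Figure D1:**
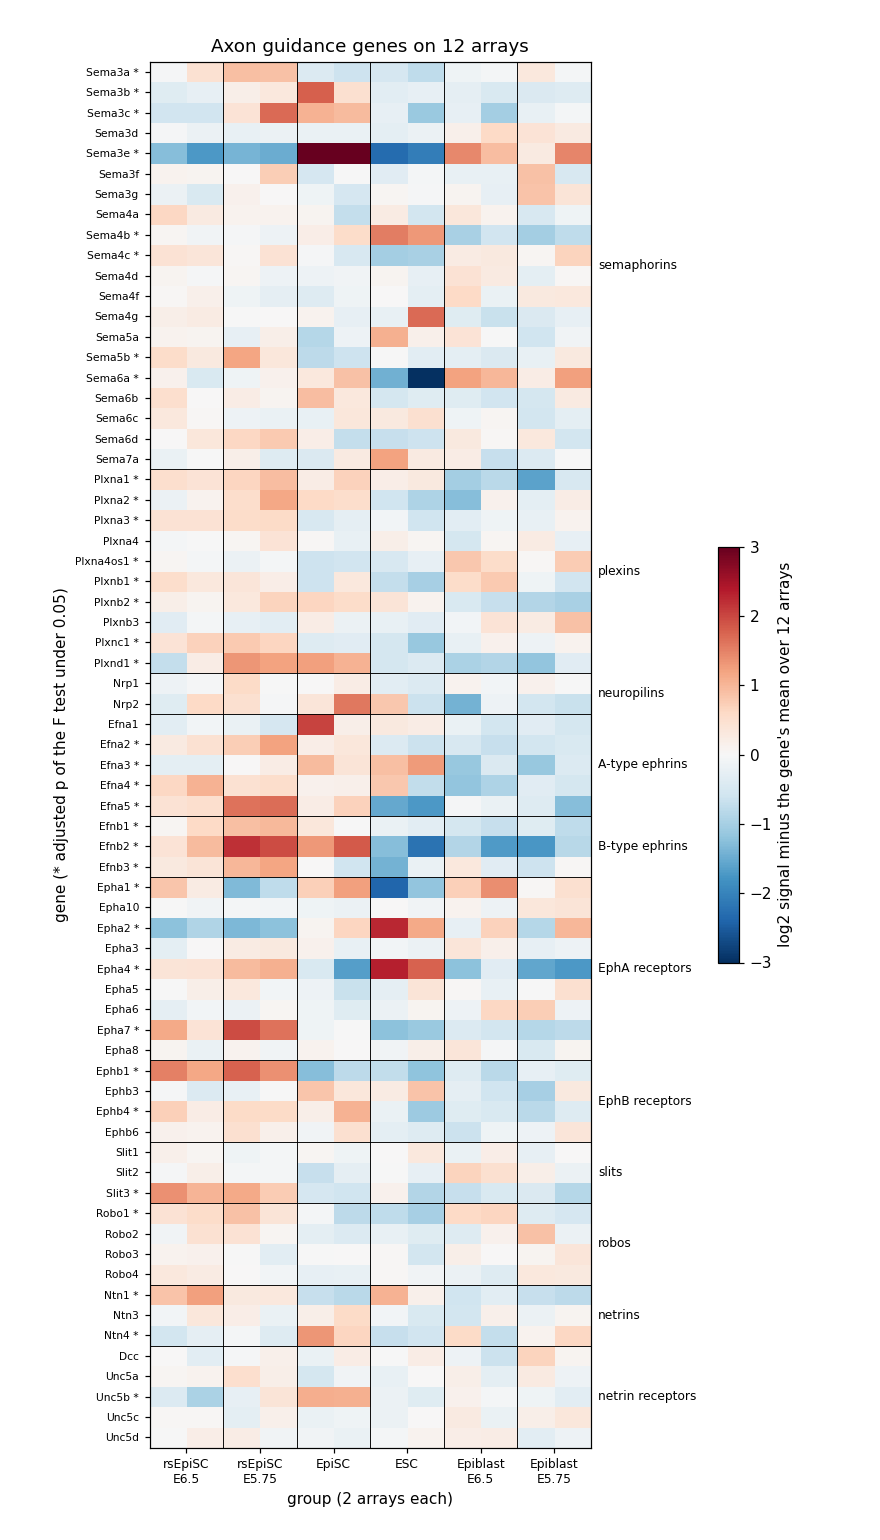
Log2 signal of each of the 68 members (rows, by family) on each of the 12 arrays (columns, by group), as the difference from the member's mean over all arrays, with the colour scale ending at 3 log2 units. Sema3e stands out in EpiSC, where its arrays read 8.50 and 8.60, and 23 members have their highest group mean in rsEpiSC E5.75.

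More members rose than fell in every pair of groups with called members. In rsEpiSC E5.75 against ESC 21 members were called, which is 30.9% of the members against 10.3% of all genes. Of these 19 were higher, as were 5.49% of all genes, and 2 were lower, as were 4.8%. Between rsEpiSC E5.75 and EpiSC 9 were called, or 13.2% against 3.87%, with 7 higher (1.56% of all genes) and 2 lower (2.31%). For EpiSC against ESC 14 were called, or 20.6% against 6.29%, with 11 higher (3.6% of all genes) and 3 lower (2.7%). The median difference over the 68 members was 0.37, 0.198 and 0.065 in these 3 comparisons, in the order given, against 0.017, 0.020 and 0.005 over all genes. With either rescaling of the arrays the split of EpiSC against ESC was 6 higher and 3 lower. The shares of all genes in those fits are not given here.

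Against tissue, the members were called about as often as genes in general in 2 of 3 comparisons. Comparing rsEpiSC E5.75 with epiblast E5.75, 20 members were called, or 29.4% against 21.5% of all genes, with 17 higher (11.5% of all genes) and 3 lower (10%). In rsEpiSC E6.5 against epiblast E6.5 10 were called, or 14.7% against 12.5%, with 9 higher (6.72%) and 1 lower (5.78%). With arrays centred and scaled that split was 6 higher and 3 lower, where the shares of all genes are not given here. In EpiSC against epiblast E5.75 15 were called, or 22.1% against 24%, with 13 higher (12.6%) and 2 lower (11.4%). The median over the members was 0.286, 0.203 and 0.085 in these 3 comparisons, in the order given. The median of all genes itself lay at -0.158, -0.099 and -0.189 in the same order, and between -0.049 and -0.019 after quantile normalization. With a filter that kept the genes of higher mean signal, 39 members among them, the all-gene median was 0.253, 0.167 and 0.254. Genes of higher signal thus also tended to rise over tissue, so a rise over tissue is not particular to these families. Arrays of tissue had the narrower spread of signals given above in each of these comparisons, and its part in these counts was not tested.

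Single arrays moved these counts. The share of all genes called in the same fits is not given here, so the shifts cannot be read as a trait of the members. EpiSC against ESC gave 7 members without EpiSC replicate 1, and 9 without EpiSC replicate 2 or ESC replicate 2. For rsEpiSC E5.75 against ESC the count was 11 without either rsEpiSC E5.75 array and 12 without ESC replicate 2. For rsEpiSC E5.75 against EpiSC it was 3 without rsEpiSC E5.75 replicate 1, 4 without its replicate 2 and 5 without EpiSC replicate 2. Against tissue, rsEpiSC E5.75 gave 12 without its replicate 1 and 13 without its replicate 2, and EpiSC gave 9 without its replicate 2. In rsEpiSC E6.5 against epiblast E6.5 the count was 4 without either rsEpiSC E6.5 array, 4 without epiblast E6.5 replicate 1 and 5 without its replicate 2. The members that passed whichever of the 12 arrays was left out were Efna5, Efnb2, Epha1, Epha4, Sema3e and Sema6a in EpiSC against ESC, and Epha7, Ephb1 and Sema3e in rsEpiSC E5.75 against EpiSC. In rsEpiSC E5.75 against ESC they were Efna2, Efna5, Efnb2, Epha2, Epha7, Ephb1, Plxnc1, Sema3a and Sema4b, and in rsEpiSC E6.5 against epiblast E6.5 Ephb1 and Sema3e. In rsEpiSC E5.75 against epiblast E5.75 they were 11 of 20, among them Efna5, Efnb2, Epha4, Epha7 and Ephb1, and in EpiSC against epiblast E5.75 6 of 15, among them Plxnd1, Sema3e and Unc5b. Some calls passed in fewer than 6 of these 12 fits. They were Epha7, Sema3b and Sema4b in EpiSC against ESC, Plxna3 and Plxnb1 in rsEpiSC E5.75 against ESC, and Epha1, Ephb4, Plxnb3, Sema3a and Sema4b in rsEpiSC E5.75 against epiblast E5.75. Efnb1 in rsEpiSC E6.5 against epiblast E6.5 and Efna2 in EpiSC against epiblast E5.75 were the others. Sema3a in rsEpiSC E5.75 against epiblast E5.75 passed in 0 of the 12.

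**Figure D2:**
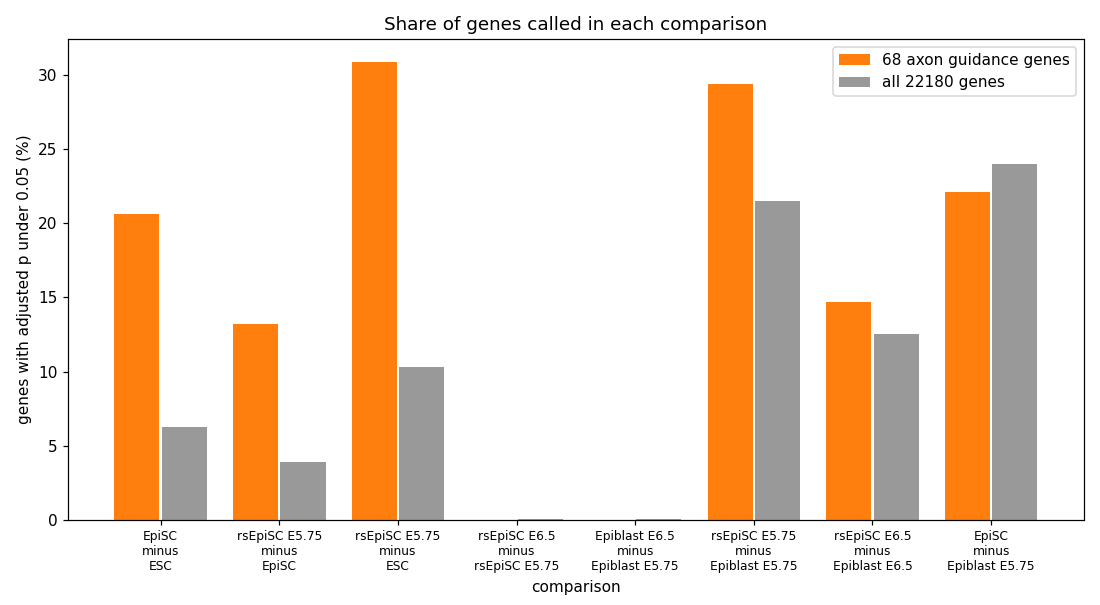
Share of the 68 members (orange bars) and of all 22180 genes (grey bars) called at an adjusted p under 0.05, in percent, for each comparison. In rsEpiSC E5.75 against ESC the shares were 30.9% and 10.3%, while in EpiSC against epiblast E5.75 they were 22.1% and 24%, and no member was called between stages.

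Promoter windows of 5 members are printed as examples of members with different patterns over the groups, chosen with their values known: Sema3e, with the smallest p of the F test, Ephb1, Epha7 and Slit3, which rose in both rsEpiSC groups against tissue, and Efnb2, which was high in EpiSC and rsEpiSC. Each is the RefSeq sequence of mouse build GRCm38.p6 over 300 bases, 250 before and 50 after a start in the RefSeq promoter table, read along the gene. For Epha7 that start lies inside the gene, downstream of the start of its gene record. Capitals mark matches, on either strand, to the TATA box motif TATAAA, the CCAAT box, the GC box motif GGGCGG, the TCF/LEF core CTTTGAT and the OTX core motif TAATCC.
Sema3e chr5:14025026-14025325 plus strand: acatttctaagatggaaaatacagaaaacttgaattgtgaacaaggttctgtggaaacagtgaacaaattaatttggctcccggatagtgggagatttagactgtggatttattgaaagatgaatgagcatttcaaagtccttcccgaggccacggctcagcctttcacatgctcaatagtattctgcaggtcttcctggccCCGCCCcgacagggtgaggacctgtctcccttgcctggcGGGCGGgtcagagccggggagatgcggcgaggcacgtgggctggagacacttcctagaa
Ephb1 chr9:102354644-102354943 minus strand: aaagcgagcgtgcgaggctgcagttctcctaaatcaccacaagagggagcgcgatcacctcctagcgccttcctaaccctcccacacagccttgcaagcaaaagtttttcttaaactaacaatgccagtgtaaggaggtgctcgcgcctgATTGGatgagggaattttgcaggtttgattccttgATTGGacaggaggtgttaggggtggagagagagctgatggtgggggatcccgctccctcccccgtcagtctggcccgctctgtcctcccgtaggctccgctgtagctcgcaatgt
Epha7 chr4:28812881-28813180 plus strand: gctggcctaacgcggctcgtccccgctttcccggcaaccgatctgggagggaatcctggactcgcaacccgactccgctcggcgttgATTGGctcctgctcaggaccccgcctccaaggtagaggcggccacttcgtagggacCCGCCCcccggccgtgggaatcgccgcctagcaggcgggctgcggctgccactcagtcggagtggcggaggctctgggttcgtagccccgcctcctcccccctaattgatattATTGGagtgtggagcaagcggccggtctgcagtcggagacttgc
Slit3 chr11:35121206-35121505 plus strand: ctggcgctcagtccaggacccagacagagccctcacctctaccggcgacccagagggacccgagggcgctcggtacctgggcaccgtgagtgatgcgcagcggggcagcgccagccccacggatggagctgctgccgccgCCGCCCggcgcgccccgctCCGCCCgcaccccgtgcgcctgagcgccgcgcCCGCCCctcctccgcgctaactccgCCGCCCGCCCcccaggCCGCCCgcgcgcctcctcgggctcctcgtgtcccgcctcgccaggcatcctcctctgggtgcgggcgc
Efnb2 chr8:8661193-8661492 minus strand: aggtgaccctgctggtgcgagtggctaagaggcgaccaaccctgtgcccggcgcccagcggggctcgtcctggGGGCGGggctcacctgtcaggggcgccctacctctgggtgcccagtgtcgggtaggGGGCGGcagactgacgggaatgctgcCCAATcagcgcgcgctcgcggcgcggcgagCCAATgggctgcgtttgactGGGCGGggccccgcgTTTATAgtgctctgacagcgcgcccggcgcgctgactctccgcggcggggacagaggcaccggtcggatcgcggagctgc

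These windows differ in base composition: they hold 11 CG pairs in Sema3e, 14 in Ephb1, 28 in Epha7, 41 in Slit3 and 35 in Efnb2. GGGCGG, the GC box bound by Sp1, matched 2 times in Sema3e, 1 time in Epha7, 6 times in Slit3, where 2 matches overlap, and 3 times in Efnb2. CCAAT matched 2 times in Ephb1, in Epha7 and in Efnb2, and TATAAA 1 time in Efnb2, on the strand opposite to the gene. Neither the TCF/LEF core nor the OTX core matched in these 5 windows, which says only that these letters are not there. Of the 68 members 57 had a window in the table, with a median of 22 CG pairs, against 7 over all 32851 windows. Each member counted with 1 window here, the first listed for its gene, while all windows of the table were counted without such a choice. GGGCGG was in 75.4% of the members' windows and 35.7% of all windows, CCAAT in 26.3% and 37.4%, and TATAAA in 3.5% and 13.6%. The TCF/LEF core was in 1.8% and 3.7%, and the OTX core in 3.5% and 7.1%. A match is a description of the letters and not a binding site.

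Among the secreted class 3 semaphorins, Sema3e separated EpiSC from every other group. Its log2 signal was 4.19 and 3.74 in rsEpiSC E6.5, 4.07 and 3.96 in rsEpiSC E5.75, 8.50 and 8.60 in EpiSC, 3.14 and 3.37 in ESC, 6.89 and 6.37 in epiblast E6.5 and 5.71 and 6.91 in epiblast E5.75. Both EpiSC arrays lay above all others, the tissue arrays were next, and the rsEpiSC and ESC arrays were lowest, with no overlap between these levels. Sema3e rose in EpiSC against ESC by 5.29 ± 0.36 (adjusted p = 5.22e-06) and against epiblast E5.75 by 2.24 ± 0.36 (adjusted p = 0.00141). In rsEpiSC E5.75 it fell against EpiSC, with a difference of -4.54 ± 0.36 (adjusted p = 5.81e-05), and against epiblast E5.75, with -2.30 ± 0.36 (adjusted p = 0.00146). It fell in rsEpiSC E6.5 against epiblast E6.5 as well, with -2.67 ± 0.36 (adjusted p = 0.00124).

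Plxnd1, the receptor that Sema3e binds without a neuropilin, was high in EpiSC and also in rsEpiSC E5.75. Its signal was 3.92 and 4.85 in rsEpiSC E6.5, 5.96 and 5.85 in rsEpiSC E5.75, 5.87 and 5.69 in EpiSC, 4.12 and 4.23 in ESC, 3.69 and 3.76 in epiblast E6.5 and 3.45 and 4.31 in epiblast E5.75. The EpiSC and rsEpiSC E5.75 arrays lay above all others and overlapped with each other. Plxnd1 rose in EpiSC against ESC by 1.60 ± 0.34 (adjusted p = 0.0131), in rsEpiSC E5.75 against ESC by 1.73 ± 0.34 (adjusted p = 0.0059) and in rsEpiSC E5.75 against epiblast E5.75 by 2.02 ± 0.34 (adjusted p = 0.00201). In EpiSC the arrays of both genes were thus among the highest, while in rsEpiSC E5.75 Plxnd1 was above and Sema3e below every tissue array.

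The other called class 3 semaphorins differed by smaller amounts. Sema3c, a ligand in heart and vessel development, had 3.77 and 3.77 in rsEpiSC E6.5, 4.75 and 6.05 in rsEpiSC E5.75, 5.39 and 5.31 in EpiSC, 4.10 and 3.24 in ESC, 4.11 and 3.33 in epiblast E6.5 and 4.13 and 4.30 in epiblast E5.75. It rose against ESC in EpiSC by 1.68 (adjusted p = 0.0305) and in rsEpiSC E5.75 by 1.74 (adjusted p = 0.0184), although the 2 rsEpiSC E5.75 arrays differed widely. Sema3a, the classical collapse-inducing ligand of Nrp1, had 4.95 and 4.93 in rsEpiSC E5.75, above every other array, against 3.64 and 3.44 in EpiSC and 3.54 and 3.28 in ESC. It rose in rsEpiSC E5.75 against EpiSC by 1.40 ± 0.25 (adjusted p = 0.0078) and against ESC by 1.53 ± 0.25 (adjusted p = 0.00191). Sema3b rose in EpiSC against ESC by 1.41 (adjusted p = 0.0309), with 6.53 and 5.22 in EpiSC against 4.43 and 4.49 in ESC. Sema3g had 4.27 and 3.99 in rsEpiSC E6.5, 4.56 and 4.46 in rsEpiSC E5.75, 4.32 and 3.94 in EpiSC, 4.50 and 4.41 in ESC, 4.53 and 4.21 in epiblast E6.5 and 5.30 and 4.83 in epiblast E5.75. It fell in EpiSC against epiblast E5.75, with -0.94 (adjusted p = 0.022).

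Of the membrane-bound semaphorins, Sema4b and Sema6a marked ESC in opposite directions. Sema4b had 6.48 and 6.32 in rsEpiSC E6.5, 6.41 and 6.27 in rsEpiSC E5.75, 6.64 and 6.98 in EpiSC, 7.97 and 7.72 in ESC, 5.46 and 5.85 in epiblast E6.5 and 5.41 and 5.66 in epiblast E5.75. The ESC arrays were above all others and the tissue arrays below all others. Sema4b fell in EpiSC against ESC, with -1.04 ± 0.27 (adjusted p = 0.0372), and in rsEpiSC E5.75 against ESC, with -1.51 ± 0.27 (adjusted p = 0.00304). It rose against epiblast E5.75 in EpiSC by 1.28 ± 0.27 (adjusted p = 0.00569) and in rsEpiSC E5.75 by 0.80 ± 0.27 (adjusted p = 0.0495).

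Sema6a, a transmembrane ligand of A-type plexins, had 7.34 and 6.74 in rsEpiSC E6.5, 7.08 and 7.33 in rsEpiSC E5.75, 7.52 and 8.07 in EpiSC, 5.77 and 4.08 in ESC, 8.42 and 8.19 in epiblast E6.5 and 7.44 and 8.44 in epiblast E5.75. Both ESC arrays were below every other array, and they differed from each other by more than 1 log2 unit. It rose against ESC in EpiSC by 2.87 ± 0.49 (adjusted p = 0.00371) and in rsEpiSC E5.75 by 2.28 ± 0.49 (adjusted p = 0.0109). Sema4c, a ligand of Plxnb2, rose in rsEpiSC E5.75 against ESC by 1.24 (adjusted p = 0.0138), with 5.18 and 5.59 in rsEpiSC E5.75 against 4.12 and 4.17 in ESC. Sema6d rose in the same comparison by 1.36 (adjusted p = 0.0254). Sema5b rose in rsEpiSC E5.75 against EpiSC by 1.47 (adjusted p = 0.0221), with 6.91 and 6.07 in rsEpiSC E5.75 against 4.92 and 5.10 in EpiSC. The other 10 semaphorins, Sema3d, Sema3f, Sema4a, Sema4d, Sema4f, Sema4g, Sema5a, Sema6b, Sema6c and Sema7a, were called in no test, with array values of 2.46 to 6.33.

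**Figure D3:**
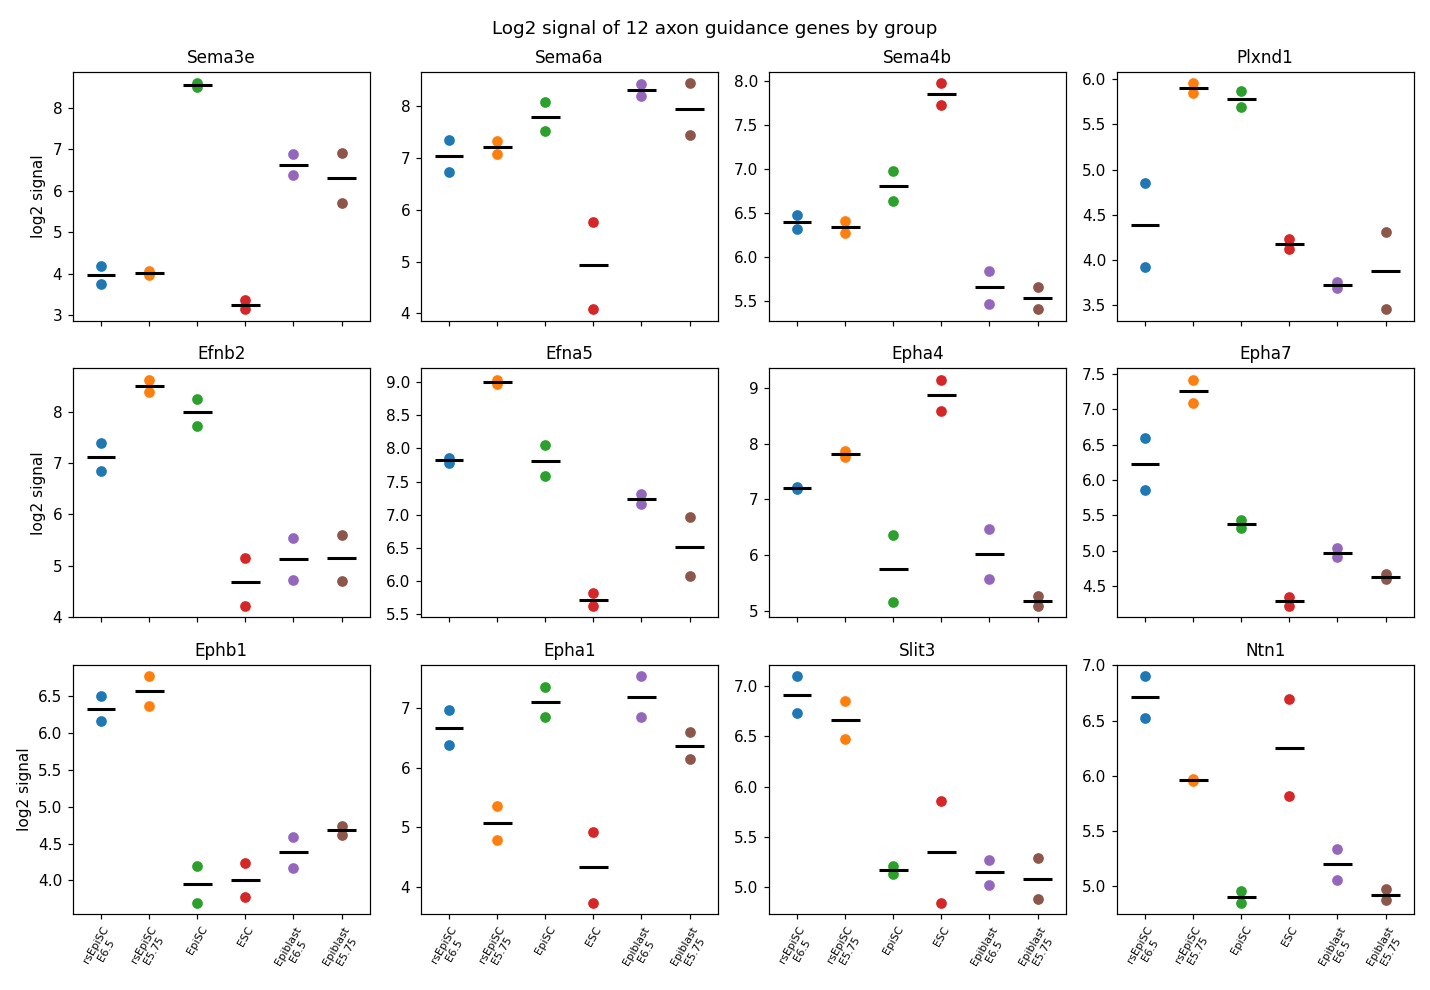
Log2 signal of 12 members on each array (points) with the mean of the 2 arrays of each group (bars), groups from rsEpiSC E6.5 at the left to epiblast E5.75 at the right. Sema3e peaks in EpiSC at 8.50 and 8.60, and Ephb1 lies at 6.15 or above on all 4 rsEpiSC arrays and at 4.74 or below on the other 8.

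Among the plexins, the semaphorin receptors, Plxna1 and Plxnb2 were higher in all cultured groups than in tissue. Plxna1, a receptor of class 3 and class 6 semaphorins, had 8.78 and 8.69 in rsEpiSC E6.5, 8.93 and 9.21 in rsEpiSC E5.75, 8.51 and 8.96 in EpiSC, 8.47 and 8.57 in ESC, 7.26 and 7.46 in epiblast E6.5 and 6.68 and 7.79 in epiblast E5.75. Every cultured array lay above every tissue array. It rose over epiblast E5.75 in rsEpiSC E5.75 by 1.83 ± 0.32 (adjusted p = 0.00283) and in EpiSC by 1.50 ± 0.32 (adjusted p = 0.00696), and in rsEpiSC E6.5 over epiblast E6.5 by 1.38 ± 0.32 (adjusted p = 0.0187). Plxnb2, the receptor of Sema4c, had 7.41 and 7.31 in rsEpiSC E6.5, 7.55 and 7.88 in rsEpiSC E5.75, 7.87 and 7.78 in EpiSC, 7.62 and 7.33 in ESC, 6.77 and 6.54 in epiblast E6.5 and 6.35 and 6.26 in epiblast E5.75. Here too all cultured arrays were above all tissue arrays, and it rose over epiblast E5.75 in rsEpiSC E5.75 by 1.42 ± 0.25 (adjusted p = 0.00249) and in EpiSC by 1.53 ± 0.25 (adjusted p = 0.00134).

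Several plexins rose in rsEpiSC E5.75 against ESC. They were Plxna2 by 1.61 (adjusted p = 0.0247), Plxna3 by 0.90 (adjusted p = 0.0434), Plxnb1 by 1.13 (adjusted p = 0.0401) and Plxnc1, the receptor of Sema7a, by 1.54 (adjusted p = 0.00274), beside Plxnd1. Plxnc1 had 5.13 and 4.98 in rsEpiSC E5.75, against 3.95 and 4.005 in EpiSC and 3.82 and 3.21 in ESC, and also rose against EpiSC by 1.08 ± 0.27 (adjusted p = 0.0442). A second probe set of Plxnb1, not used here, had a Pearson correlation of 0.244 with the one used over the 12 arrays. Plxnb3 had 3.73 and 4.003 in rsEpiSC E6.5, 3.81 and 3.75 in rsEpiSC E5.75, 4.28 and 3.90 in EpiSC, 3.85 and 3.72 in ESC, 3.98 and 4.48 in epiblast E6.5 and 4.32 and 4.95 in epiblast E5.75, and fell in rsEpiSC E5.75 against epiblast E5.75, with -0.85 ± 0.28 (adjusted p = 0.0479). The antisense RNA Plxna4os1 had 4.18 and 4.07 in rsEpiSC E6.5, 3.94 and 4.06 in rsEpiSC E5.75, 3.49 and 3.55 in EpiSC, 3.64 and 3.86 in ESC, 4.94 and 4.67 in epiblast E6.5 and 4.16 and 4.87 in epiblast E5.75. It fell in EpiSC against epiblast E5.75, with -0.996 ± 0.26 (adjusted p = 0.0183). Its sense partner Plxna4 was called in no test, with array values of 3.41 to 4.35.

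The neuropilins, coreceptors of class 3 semaphorins, were not called. Nrp1 lay between 2.85 and 3.83 on all 12 arrays. Nrp2 had 4.54 and 5.51 in rsEpiSC E6.5, 5.38 and 4.87 in rsEpiSC E5.75, 5.27 and 6.50 in EpiSC, 5.72 and 4.27 in ESC, 3.49 and 4.77 in epiblast E6.5 and 4.37 and 4.25 in epiblast E5.75, so its 2 arrays differed by about 1 log2 unit or more in rsEpiSC E6.5, EpiSC, ESC and epiblast E6.5.

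The ephrins, ligands of the Eph receptors, were highest in rsEpiSC E5.75 for 5 of 8 members: Efna2, Efna5, Efnb1, Efnb2 and Efnb3. Efnb2, the B-type ephrin of arterial vessels and somite boundaries, had 6.84 and 7.39 in rsEpiSC E6.5, 8.63 and 8.38 in rsEpiSC E5.75, 7.72 and 8.26 in EpiSC, 5.14 and 4.21 in ESC, 5.55 and 4.73 in epiblast E6.5 and 4.69 and 5.59 in epiblast E5.75. All rsEpiSC and EpiSC arrays were above all ESC and tissue arrays. Efnb2 rose against ESC in EpiSC by 3.31 ± 0.42 (adjusted p = 0.000482) and in rsEpiSC E5.75 by 3.83 ± 0.42 (adjusted p = 0.000109). Against tissue of the same stage it rose in rsEpiSC E5.75 by 3.36 ± 0.42 (adjusted p = 0.000399) and in rsEpiSC E6.5 by 1.98 ± 0.42 (adjusted p = 0.0118). In EpiSC against epiblast E5.75 the rise was 2.85 ± 0.42 (adjusted p = 0.000776).

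Efna5, an A-type ephrin that patterns retinal axon maps, had 7.79 and 7.86 in rsEpiSC E6.5, 8.98 and 9.04 in rsEpiSC E5.75, 7.58 and 8.05 in EpiSC, 5.81 and 5.62 in ESC, 7.31 and 7.16 in epiblast E6.5 and 6.96 and 6.07 in epiblast E5.75. The rsEpiSC E5.75 arrays were above all others and the ESC arrays below all others. Efna5 rose against ESC in EpiSC by 2.10 ± 0.31 (adjusted p = 0.00133) and in rsEpiSC E5.75 by 3.29 ± 0.31 (adjusted p = 3.19e-05), and in rsEpiSC E5.75 against epiblast E5.75 by 2.49 ± 0.31 (adjusted p = 0.000353).

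Efna2, Efnb1 and Efnb3 differed by smaller amounts. Efna2 had 6.33 and 6.52 in rsEpiSC E6.5, 6.80 and 7.27 in rsEpiSC E5.75, 6.26 and 6.39 in EpiSC, 5.64 and 5.42 in ESC, 5.59 and 5.37 in epiblast E6.5 and 5.51 and 5.59 in epiblast E5.75. It rose in rsEpiSC E5.75 against ESC by 1.50 ± 0.26 (adjusted p = 0.00276) and against epiblast E5.75 by 1.49 ± 0.26 (adjusted p = 0.00265). Efnb1, whose loss disturbs skull and face growth, rose in the same comparisons by 1.21 (adjusted p = 0.0147) and 1.50 (adjusted p = 0.0035), and Efnb3 by 1.89 (adjusted p = 0.0105) and 1.38 (adjusted p = 0.0318). Efna3 rose in EpiSC against epiblast E5.75 by 1.44 (adjusted p = 0.0104), and its highest group mean was that of ESC, with 6.68 and 7.06 in ESC. Efna4 had 6.29 and 6.71 in rsEpiSC E6.5, 6.13 and 6.20 in rsEpiSC E5.75, 5.80 and 5.83 in EpiSC, 6.49 and 4.94 in ESC, 4.48 and 4.74 in epiblast E6.5 and 5.32 and 5.15 in epiblast E5.75, and rose in rsEpiSC E6.5 against epiblast E6.5 by 1.89 ± 0.40 (adjusted p = 0.012). Efna1 had 4.35 and 4.58 in rsEpiSC E6.5, 4.48 and 4.18 in rsEpiSC E5.75, 6.71 and 4.85 in EpiSC, 4.97 and 4.89 in ESC, 4.48 and 4.11 in epiblast E6.5 and 4.32 and 4.14 in epiblast E5.75. It rose in EpiSC against epiblast E5.75 by 1.55 (adjusted p = 0.0269), and 1 EpiSC array carried most of that difference.

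Markers of fibroblasts, the feeder cells of all lines, also differed between the groups. The mean log2 signal of 18 fibroblast markers ran over 4.82 to 4.94 in rsEpiSC E6.5, 5.28 to 5.43 in rsEpiSC E5.75, 5.42 to 5.56 in EpiSC, 4.46 to 4.67 in ESC, 4.62 to 4.66 in epiblast E6.5 and 4.65 to 4.74 in epiblast E5.75. Of the 18, 5 rose and 0 fell in rsEpiSC E5.75 against ESC, beside 10.3% of all genes called. In EpiSC against ESC 4 rose and 0 fell, beside 6.29%. Against epiblast E5.75 6 rose and 1 fell in each of these lines, beside 21.5% in rsEpiSC E5.75 and 24% in EpiSC. In rsEpiSC E5.75 against EpiSC 0 rose and 2 fell, beside 3.87%. Col1a2, a fibrillar collagen chain, had 4.89 and 5.01 in rsEpiSC E6.5, 7.70 and 7.88 in rsEpiSC E5.75, 6.29 and 9.02 in EpiSC and 3.21 and 3.505 in ESC, and Tagln, a smooth muscle and fibroblast protein, had 5.39 and 5.48 in rsEpiSC E6.5, 7.06 and 7.61 in rsEpiSC E5.75, 8.94 and 9.44 in EpiSC and 4.91 and 4.73 in ESC. Mmp2, a matrix protease, had 7.71 and 8.20 in rsEpiSC E6.5, 8.24 and 8.35 in rsEpiSC E5.75, 7.70 and 6.77 in EpiSC, 5.18 and 6.23 in ESC, 5.13 and 5.17 in epiblast E6.5 and 5.07 and 5.87 in epiblast E5.75, and rose in rsEpiSC E5.75 against ESC by 2.59 ± 0.41 (adjusted p = 0.00154). Pdgfra, a receptor of platelet-derived growth factor, rose in the same comparison by 1.48 ± 0.40 (adjusted p = 0.0354). Col1a1, another fibrillar collagen chain, was at 5.31 and 6.67 in EpiSC and rose there over epiblast E5.75 by 1.21 ± 0.36 (adjusted p = 0.029). In rsEpiSC E5.75 Col1a1 was at 4.63 and 4.72, against 4.84 and 4.73 in epiblast E5.75. The marker that fell against epiblast E5.75 was Dcn in both lines. Its difference was -2.14 ± 0.30 in rsEpiSC E5.75 (adjusted p = 0.000797) and -1.71 ± 0.30 in EpiSC (adjusted p = 0.00239). Prrx1 lay between 3.78 and 4.08 and Lum between 2.18 and 2.72 on the 8 cultured arrays. EpiSC and rsEpiSC E5.75 had the highest marker means. Of the called members, Sema3e, Unc5b, Ntn4, Sema3b, Efna1, Ephb4 and Plxnb2 had their highest mean in EpiSC. Efna2, Efna5, Efnb1, Efnb2, Efnb3, Epha7, Ephb1, Plxna1, Plxna2, Plxna3, Plxnc1, Plxnd1, Robo1, Sema3a, Sema3c, Sema5b and Sema6d had it in rsEpiSC E5.75. The other called members were highest elsewhere. Efna4, Ntn1, Sema4c and Slit3 were highest in rsEpiSC E6.5, and Efna3, Epha2, Epha4 and Sema4b in ESC. Epha1, Plxna4os1, Plxnb1, Plxnb3, Sema3g and Sema6a were highest in tissue. The part of feeder cells in the differences of these members was not tested.

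Among the EphA receptors, the receptor tyrosine kinases of A-type ephrins, Epha7 was highest in rsEpiSC. Epha7 had 6.60 and 5.86 in rsEpiSC E6.5, 7.41 and 7.09 in rsEpiSC E5.75, 5.32 and 5.44 in EpiSC, 4.22 and 4.35 in ESC, 5.04 and 4.91 in epiblast E6.5 and 4.60 and 4.68 in epiblast E5.75. The rsEpiSC arrays lay above all others, and the EpiSC arrays above those of ESC and tissue. It rose in rsEpiSC E5.75 against EpiSC by 1.87 ± 0.28 (adjusted p = 0.00258), against ESC by 2.96 ± 0.28 (adjusted p = 3.71e-05) and against epiblast E5.75 by 2.61 ± 0.28 (adjusted p = 0.000165). In EpiSC against ESC it rose by 1.09 ± 0.28 (adjusted p = 0.0385), and in rsEpiSC E6.5 against epiblast E6.5 by 1.25 ± 0.28 (adjusted p = 0.0152).

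Epha4, which binds ephrins of both types, was highest in ESC. It had 7.20 and 7.23 in rsEpiSC E6.5, 7.76 and 7.88 in rsEpiSC E5.75, 6.36 and 5.16 in EpiSC, 9.15 and 8.59 in ESC, 5.57 and 6.46 in epiblast E6.5 and 5.26 and 5.09 in epiblast E5.75. ESC arrays were above the rsEpiSC arrays, which were above all EpiSC and tissue arrays. It fell in EpiSC against ESC, with -3.11 ± 0.40 (adjusted p = 0.000508), and rose in rsEpiSC E5.75 against EpiSC by 2.06 ± 0.40 (adjusted p = 0.0128) and against epiblast E5.75 by 2.64 ± 0.40 (adjusted p = 0.00114). The difference between rsEpiSC E5.75 and ESC, -1.05 ± 0.40, did not pass (adjusted p = 0.139).

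Epha1, an epithelial Eph receptor, was low in rsEpiSC E5.75 and in ESC. It had 6.96 and 6.37 in rsEpiSC E6.5, 4.80 and 5.35 in rsEpiSC E5.75, 6.84 and 7.36 in EpiSC, 3.74 and 4.93 in ESC, 6.85 and 7.53 in epiblast E6.5 and 6.15 and 6.59 in epiblast E5.75. Every array of the other 4 groups was higher than the arrays of these groups. Epha1 rose in EpiSC against ESC by 2.76 ± 0.42 (adjusted p = 0.00171), and fell in rsEpiSC E5.75 against EpiSC, with -2.03 ± 0.42 (adjusted p = 0.0181), and against epiblast E5.75, with -1.30 ± 0.42 (adjusted p = 0.0461).

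Epha2, a receptor of ephrin-A1 in epithelia, had 4.79 and 5.12 in rsEpiSC E6.5, 4.68 and 4.80 in rsEpiSC E5.75, 6.11 and 6.68 in EpiSC, 8.30 and 7.16 in ESC, 5.79 and 6.72 in epiblast E6.5 and 5.16 and 7.02 in epiblast E5.75. Both ESC arrays were above all others and the rsEpiSC arrays below all others. It fell in rsEpiSC E5.75 against ESC, with -2.99 ± 0.55 (adjusted p = 0.00407). The other EphA receptors, Epha3, Epha5, Epha6, Epha8 and Epha10, were called in no test, with array values of 2.46 to 5.21.

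Of the EphB receptors, which bind B-type ephrins, Ephb1 was high in both rsEpiSC groups. Ephb1 had 6.50 and 6.15 in rsEpiSC E6.5, 6.76 and 6.36 in rsEpiSC E5.75, 3.70 and 4.20 in EpiSC, 4.24 and 3.77 in ESC, 4.59 and 4.17 in epiblast E6.5 and 4.74 and 4.62 in epiblast E5.75. All 4 rsEpiSC arrays were above all 8 others. It rose in rsEpiSC E5.75 against EpiSC by 2.61 ± 0.29 (adjusted p = 0.000441), against ESC by 2.55 ± 0.29 (adjusted p = 0.000148) and against epiblast E5.75 by 1.88 ± 0.29 (adjusted p = 0.00135). In rsEpiSC E6.5 against epiblast E6.5 it rose by 1.95 ± 0.29 (adjusted p = 0.00205). Ephb4, the venous receptor of ephrin-B2, rose over epiblast E5.75 in rsEpiSC E5.75 by 1.17 (adjusted p = 0.0406) and in EpiSC by 1.19 (adjusted p = 0.0343). Ephb3 and Ephb6 were called in no test, with array values of 3.995 to 6.69.

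**Figure D4:**
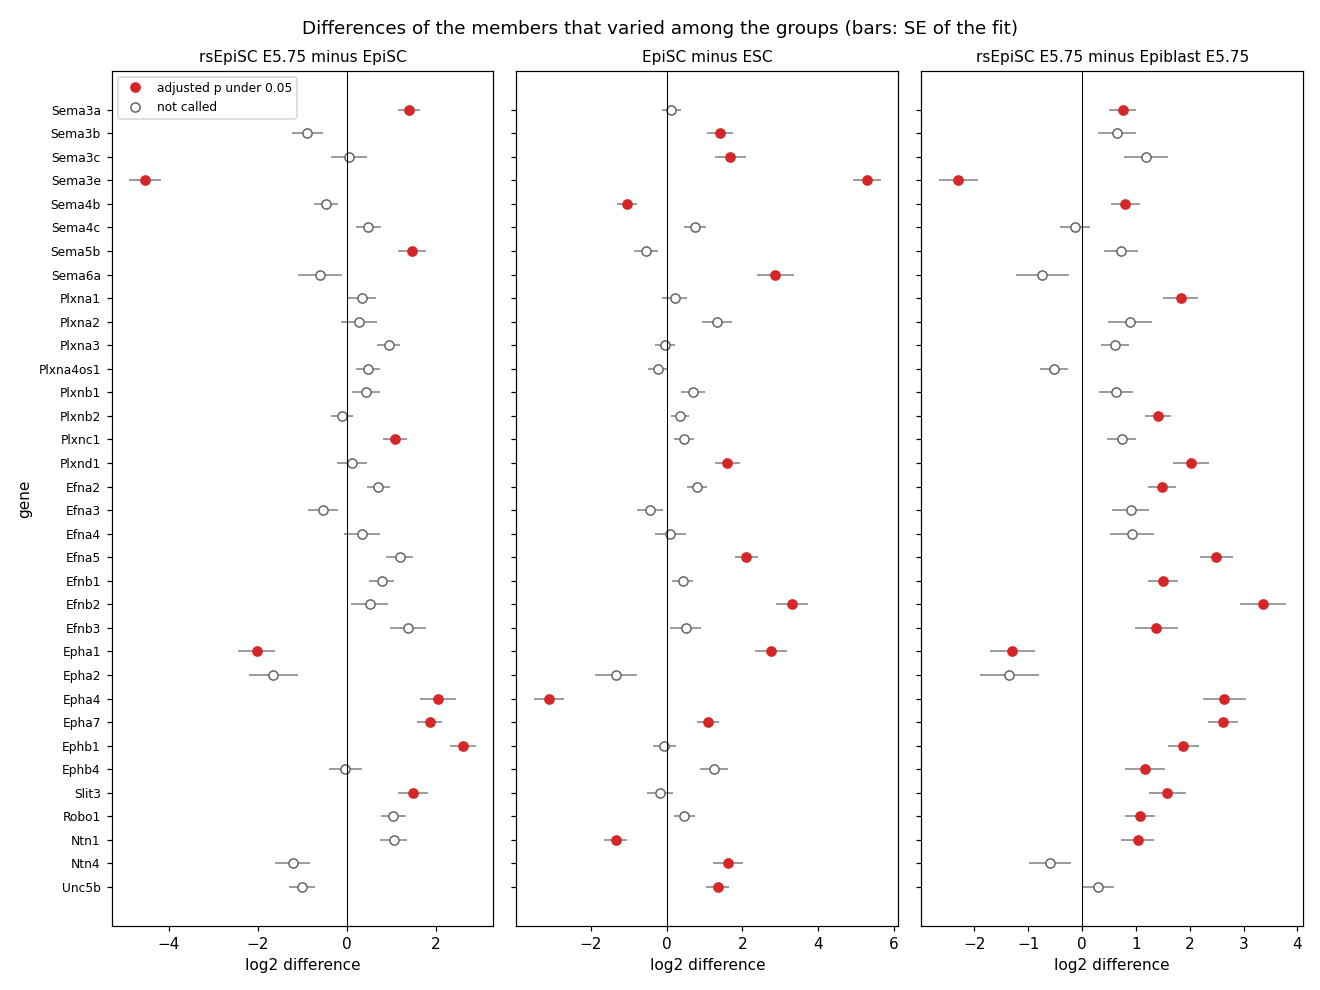
Log2 differences of the members called in the F test (rows) for rsEpiSC E5.75 minus EpiSC (left), EpiSC minus ESC (middle) and rsEpiSC E5.75 minus epiblast E5.75 (right), with SE as bars and called differences filled. Sema3e lies at -4.54 in the comparison with EpiSC and at 5.29 in EpiSC against ESC, while Ephb1 is at 2.61 in rsEpiSC E5.75 against EpiSC.

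Slits, the secreted ligands of robos, were represented by 1 called gene. Slit3 had 7.10 and 6.73 in rsEpiSC E6.5, 6.85 and 6.47 in rsEpiSC E5.75, 5.21 and 5.13 in EpiSC, 5.85 and 4.84 in ESC, 5.02 and 5.27 in epiblast E6.5 and 5.28 and 4.87 in epiblast E5.75. The 4 rsEpiSC arrays were above all 8 others. Slit3 rose in rsEpiSC E5.75 against EpiSC by 1.49 ± 0.34 (adjusted p = 0.0292), against ESC by 1.31 ± 0.34 (adjusted p = 0.0278) and against epiblast E5.75 by 1.58 ± 0.34 (adjusted p = 0.00767), and in rsEpiSC E6.5 against epiblast E6.5 by 1.77 ± 0.34 (adjusted p = 0.00717). Slit1 and Slit2 were called in no test. Slit2, the ligand best known from midline crossing, had 4.13 and 4.34 in rsEpiSC E6.5, 4.12 and 4.10 in rsEpiSC E5.75, 3.48 and 3.90 in EpiSC, 4.16 and 3.92 in ESC, 4.84 and 4.64 in epiblast E6.5 and 4.35 and 3.997 in epiblast E5.75 (F test adjusted p = 0.0715), and the array values of Slit1 were 4.04 to 4.61.

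Robo1, a slit receptor, had 8.22 and 8.32 in rsEpiSC E6.5, 8.67 and 8.16 in rsEpiSC E5.75, 7.73 and 7.01 in EpiSC, 7.02 and 6.78 in ESC, 8.37 and 8.44 in epiblast E6.5 and 7.39 and 7.29 in epiblast E5.75. It was high in both rsEpiSC groups and in epiblast E6.5, and these 3 groups lay above all arrays of the other 3. It rose in rsEpiSC E5.75 against ESC by 1.51 ± 0.28 (adjusted p = 0.00454) and against epiblast E5.75 by 1.08 ± 0.28 (adjusted p = 0.02). Robo2, Robo3 and Robo4, the last a receptor of blood vessels, were called in no test, with array values of 2.66 to 4.66. The called slit and the called robo were both high in rsEpiSC.

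Ntn1, the netrin that guides commissural axons, was high in ESC and rsEpiSC. It had 6.53 and 6.90 in rsEpiSC E6.5, 5.95 and 5.98 in rsEpiSC E5.75, 4.96 and 4.85 in EpiSC, 6.69 and 5.82 in ESC, 5.06 and 5.34 in epiblast E6.5 and 4.98 and 4.87 in epiblast E5.75. The rsEpiSC and ESC arrays were above all EpiSC and tissue arrays. Ntn1 fell in EpiSC against ESC, with -1.35 ± 0.31 (adjusted p = 0.0197), and rose against tissue of the same stage in rsEpiSC E5.75 by 1.04 ± 0.31 (adjusted p = 0.0319) and in rsEpiSC E6.5 by 1.51 ± 0.31 (adjusted p = 0.00903). The difference between rsEpiSC E5.75 and EpiSC, 1.06 ± 0.31, did not pass (adjusted p = 0.0902).

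Ntn4, a netrin of basement membranes, ran the other way between EpiSC and ESC. It had 3.43 and 3.70 in rsEpiSC E6.5, 3.91 and 3.58 in rsEpiSC E5.75, 5.29 and 4.62 in EpiSC, 3.27 and 3.39 in ESC, 4.56 and 3.25 in epiblast E6.5 and 4.07 and 4.60 in epiblast E5.75, and rose in EpiSC against ESC by 1.62 ± 0.39 (adjusted p = 0.0263). The epiblast E6.5 arrays differed from each other by more than 1 log2 unit. Ntn3 was called in no test, with array values of 4.30 to 5.43.

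Of the netrin receptors, Unc5b alone was called. It had 5.85 and 5.33 in rsEpiSC E6.5, 6.03 and 6.65 in rsEpiSC E5.75, 7.35 and 7.34 in EpiSC, 6.10 and 5.91 in ESC, 6.40 and 6.21 in epiblast E6.5 and 6.13 and 5.95 in epiblast E5.75. Both EpiSC arrays were above all others. Unc5b rose in EpiSC against ESC by 1.34 ± 0.29 (adjusted p = 0.0156) and against epiblast E5.75 by 1.31 ± 0.29 (adjusted p = 0.00792). Dcc, the receptor that mediates attraction to netrin, lay between 3.13 and 4.44, and Unc5a, Unc5c and Unc5d lay between 3.33 and 5.33 on all arrays.

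Between stages no member was called by limma. In rsEpiSC E6.5 against rsEpiSC E5.75 0 of 68 members passed, against 0.0857% of all genes. The smallest unadjusted p among the members belonged to Plxnd1, with a difference of -1.52 ± 0.34 (unadjusted p = 0.000734, adjusted p = 0.217). Sema3c was at -1.63 ± 0.41 (adjusted p = 0.353), Efnb2 at -1.39 ± 0.42 (adjusted p = 0.562), Efna5 at -1.19 ± 0.31 (adjusted p = 0.368) and Epha1 at 1.59 ± 0.42 (adjusted p = 0.396). With array weights these 5 members passed, all but Epha1 lower in rsEpiSC E6.5, and with only the 4 arrays of that comparison in the fit Efna5 and Efnb2 passed. The shares of all genes called in those fits are not given here. The fibroblast marker mean given above was also lower in rsEpiSC E6.5 than in rsEpiSC E5.75, and its part in these differences was not tested.

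In epiblast E6.5 against epiblast E5.75 0 of 68 passed, against 0.0225% of all genes. Robo1 had the smallest unadjusted p among the members, with a difference of 1.07 ± 0.28 (adjusted p = 0.188). The stage difference in rsEpiSC minus that in epiblast was called for 0 of 68 members, against 0.00902% of all genes. Efna5 had the smallest unadjusted p here, at -1.91 ± 0.43 (adjusted p = 0.258).

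Other guidance genes were followed in a list of 23 ligands and receptors outside the member families. Against EpiSC 2 rose and 0 fell in rsEpiSC E5.75, beside 3.87% of all genes called, with a median over the list of 0.087, against 0.020 over all genes. They were Flrt3, a ligand of Unc5 receptors, by 3.12 ± 0.30 (adjusted p = 0.000167) and Cxcr4, the receptor of the chemokine Cxcl12, by 2.41 ± 0.41 (adjusted p = 0.00606). Flrt3 had 5.70 and 6.10 in rsEpiSC E6.5, 6.81 and 7.39 in rsEpiSC E5.75, 3.93 and 4.03 in EpiSC, 3.61 and 4.01 in ESC, 5.46 and 5.49 in epiblast E6.5 and 4.99 and 4.46 in epiblast E5.75. All rsEpiSC arrays were above all others, and those of E5.75 were highest. In EpiSC against ESC, where 6.29% of all genes were called, 2 rose and 0 fell, with a median of 0.172 against 0.005 over all genes: the adhesion molecule Nrcam by 3.23 ± 0.28 (adjusted p = 2.97e-05) and Met, the receptor of hepatocyte growth factor, by 2.07 ± 0.47 (adjusted p = 0.0194). Neo1, a Dcc relative that binds netrins and Rgm proteins, rose over epiblast E5.75 in rsEpiSC E5.75 by 1.50 ± 0.27 (adjusted p = 0.00336) and in EpiSC by 1.35 ± 0.27 (adjusted p = 0.00497). In rsEpiSC E5.75 5 rose and 0 fell against ESC, with 10.3% of all genes called and medians of 0.151 over the list and 0.017 over all genes. Against epiblast E5.75 7 rose and 0 fell there, with 21.5% of all genes called and medians of 0.013 and -0.158. In EpiSC 5 rose and 0 fell against epiblast E5.75, with 24% called and medians of 0.049 and -0.189. In rsEpiSC E6.5 2 rose and 2 fell against epiblast E6.5, with 12.5% called and medians of 0.078 and -0.099. Among genes of higher mean signal the all-gene median was positive in each comparison with tissue, as given above.

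The proteins that carry guidance signals inside the cell were followed in a list of 42 genes. Against EpiSC, 4 rose and 0 fell in rsEpiSC E5.75, with a median of 0.266, beside 3.87% of all genes called and their median of 0.020, and 3 of these were collapsin response mediators, which act on microtubules downstream of semaphorins: Dpysl2, Dpysl4 and Dpysl5. Dpysl3, of the same family, hardly differed, with 5.80 and 5.86 in rsEpiSC E5.75 and 5.79 and 5.655 in EpiSC. Dpysl2 had 9.07 and 9.21 in rsEpiSC E6.5, 9.63 and 9.69 in rsEpiSC E5.75, 7.37 and 7.72 in EpiSC, 4.51 and 5.13 in ESC, 5.47 and 6.33 in epiblast E6.5 and 5.57 and 5.51 in epiblast E5.75. Every rsEpiSC array was above every other array. It rose in rsEpiSC E5.75 against EpiSC by 2.11 ± 0.32 (adjusted p = 0.00277) and against ESC by 4.84 ± 0.32 (adjusted p = 3.13e-06), and in EpiSC against ESC by 2.73 ± 0.32 (adjusted p = 0.000268). Crmp1, of the same family, rose against ESC in rsEpiSC E5.75 by 3.71 ± 0.49 (adjusted p = 0.000425) and in EpiSC by 2.65 ± 0.49 (adjusted p = 0.00641). Its 2 ESC arrays differed widely, with 5.14 and 3.12, against 7.65 and 8.04 in rsEpiSC E5.75 and 6.745 and 6.82 in EpiSC. In all, 10 rose and 1 fell in rsEpiSC E5.75 against ESC, with a median of 0.349, beside 10.3% of all genes called and their median of 0.017. In EpiSC against ESC 3 rose and 2 fell, with a median of 0.135, beside 6.29% and 0.005.

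Against tissue of the same stage 14 mediators rose and 2 fell in rsEpiSC E5.75, with a median of 0.527, beside 21.5% of all genes called and their median of -0.158. In rsEpiSC E6.5 6 rose and 2 fell, with a median of 0.161, beside 12.5% and -0.099. In EpiSC 8 rose and 3 fell, with a median of 0.129, beside 24% and -0.189. For genes of higher mean signal these all-gene medians were positive, as given above. Gipc1, an adaptor of plexins and neuropilins, rose over epiblast E5.75 in rsEpiSC E5.75 by 3.01 ± 0.52 (adjusted p = 0.00239), and Rras, a small GTPase on which plexins act, by 2.33 ± 0.36 (adjusted p = 0.0012). Enah, an actin regulator downstream of robos, and the kinase Rock1 fell there, with -1.05 ± 0.23 (adjusted p = 0.0089) and -1.30 ± 0.28 (adjusted p = 0.00759). No mediator and no gene of the 23 was called between stages.

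Markers of neurons, the cells best known for these families, were checked as well. Of 12 neuronal markers 0 rose and 3 fell in rsEpiSC E5.75 against EpiSC, beside 3.87% of all genes called. In rsEpiSC E5.75 against ESC 3 rose and 1 fell, beside 10.3%, and in EpiSC against ESC 3 rose and 0 fell, beside 6.29%. Their mean log2 signal ran over 6.34 to 6.35 in rsEpiSC E6.5, 5.68 to 5.96 in rsEpiSC E5.75, 5.81 to 6.12 in EpiSC, 4.80 to 5.56 in ESC, 5.82 to 6.07 in epiblast E6.5 and 5.61 to 5.68 in epiblast E5.75. Tubb3, a neuronal tubulin, was at 9.60 and 8.75 in rsEpiSC E6.5 and 7.87 and 8.42 in rsEpiSC E5.75. It was at 4.72 and 5.89 in EpiSC, at 6.975 and 3.52 in ESC and between 6.03 and 6.71 on the tissue arrays. Stmn2 and Nefm ran the other way between rsEpiSC E5.75 and EpiSC. Stmn2 was at 8.85 and 8.64 in rsEpiSC E5.75 and 10.38 and 10.70 in EpiSC. Nefm was at 4.19 and 5.07 in rsEpiSC E5.75 and 6.765 and 7.255 in EpiSC. Dcx, a defining marker of young neurons, lay between 2.45 and 4.01 on all 12 arrays. Of 13 markers of visceral endoderm, the tissue that surrounds the epiblast, 1 rose and 0 fell in EpiSC against epiblast E5.75, beside 24% of all genes called. In rsEpiSC E6.5 against epiblast E6.5 0 of them rose and 1 fell, beside 12.5%. Of 8 endothelial markers 0 rose and 2 fell in rsEpiSC E5.75 against epiblast E5.75, beside 21.5% of all genes called. The part of such cells in the members' differences was not tested.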

How the data were processed

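Log2 signals of 41345 probe sets on 12 arrays were deposited by the authors, and the submitters' processing notes name the tools RMA and oligo; no version or setting is given in the sources used here. RMA corrects background and summarises probes, among other steps, which compresses differences between weak signals. Over the 22180 genes used here the arrays do not share 1 distribution, as their interquartile ranges show. A human array is named in the labels, whereas the probe set identifiers are those of a mouse table. Of the probe sets 23521 carried 1 symbol, 1814 several and 16010 none; the last 2 kinds were not used. Symbols were checked by gene identifier against RefSeq GRCm38.p6, which held 99.18% and changed 0. No filter on low signal was applied, so all 68 members were tested.

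Group means were fitted with limma 3.58.1 in R 4.3.3 (lmFit, eBayes with a variance trend) on all 12 arrays, with 8 pairs of groups, 1 interaction and an F test; the script was tested on simulated data. Precision is limited by 2 arrays a group. Alternatives were a replicate block, leaving out each array, other sets of arrays, no trend, array weights, quantile normalization, centring and scaling, a filter on mean signal and the mean of probe sets. Values on every array are given for up to 4 members called in each direction in a comparison and up to 3 members of each family with the smallest p of the F test; the values of Nrp2, Sema3a, Sema3b, Sema3c, Sema4c, Sema5b, Plxnc1, Efna3 and of the listed genes outside the families were added after they were seen. Members and gene lists were chosen with earlier results of these data known.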

Additional observations from a re-analysis of the deposited data

How the results depend on the processing

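None of the 66 called differences of the members chosen by the naming rule changed direction under the alternatives tried. Of these 66, 58 still passed with array weights, 52 with arrays centred and scaled, 54 after quantile normalization, 65 without the variance trend and 66 with the mean of probe sets, and 50 passed when only the arrays of the groups compared were fitted. The naming rule picked large differences or small p of the F test, so these shares do not stand for all called members. Of all members called, 9 of 15 in EpiSC against epiblast E5.75 still passed after quantile normalization. In rsEpiSC E5.75 against EpiSC 8 of 9 did. In EpiSC against ESC 9 members were called after quantile normalization, 9 with arrays centred and scaled, and 7 with only the arrays compared. EpiSC against epiblast E5.75 gave 6 with only the arrays compared. With array weights 18 were called in rsEpiSC E5.75 against EpiSC and 5 in rsEpiSC E6.5 against rsEpiSC E5.75, where only the arrays compared gave 2. Array weights were the same for both arrays of a group, from 0.479 in epiblast E5.75 to 2.123 in rsEpiSC E6.5. They therefore weighted whole groups and did not judge single arrays. Fits on 4 arrays have fewer residual degrees of freedom, and the cause of the other shifts was not tested. The share of all genes called under each alternative is not given here, so these shifts cannot be read as a trait of the members. All other counts stayed within 1.5 times the reported ones. Leaving out each array in turn gave 27 to 36 members in the F test, 7 to 15 in EpiSC against ESC, 3 to 11 in rsEpiSC E5.75 against EpiSC, 11 to 21 against ESC and 12 to 20 against epiblast E5.75, 4 to 11 in rsEpiSC E6.5 against epiblast E6.5, 9 to 17 in EpiSC against epiblast E5.75, and 0 to 0 between stages and in the interaction; a lone array was assumed to vary like the other groups.

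The correlation of same-numbered deviations from the group means was between -0.26 and 0.058 over the 15 pairs of groups, and over 0.1 in 0 of them. The value of -0.26 was that of ESC with EpiSC, and the next lowest was -0.042. Only positive values were counted, so this check does not settle whether arrays were paired. With the replicate block the counts were 32 in the F test, 13 in EpiSC against ESC, 8 in rsEpiSC E5.75 against EpiSC, 19 against ESC and 16 against epiblast E5.75, 9 in rsEpiSC E6.5 against epiblast E6.5, 14 in EpiSC against epiblast E5.75 and 0 in the other 3.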

Other observations

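Some members differed between the 2 arrays of a group by more than 1 log2 unit, which a group mean hides. Sema4g had 4.11 and 6.02 in ESC and lay between 3.67 and 4.57 on the other 10 arrays. Efna4 had 6.49 and 4.94 in ESC, Efnb3 4.32 and 5.53 in ESC and Sema3f 6.33 and 4.99 in epiblast E5.75. Epha2 had 5.16 and 7.02 in epiblast E5.75 and Ephb3 4.84 and 6.12 in epiblast E5.75. These members were chosen after their values were seen.

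For 3 members a second probe set of 1 symbol was not used in the reported values. Its mean over the 12 arrays was 4.88 for Ephb1, 6.16 for Plxna1 and 4.27 for Plxnb1, and its Pearson correlation with the probe set used was 0.845, 0.641 and 0.244 over the 12 arrays, in the same order. The arrays share their groups, so these correlations are descriptions of the probe sets.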
